A study of Mus musculus with 8 samples.

Results

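Dlk1, Meg3, Rian, Mirg, H19, Igf2, Peg3, Mest, Plagl1 and Cdkn1c are imprinted genes, read from only the maternal or only the paternal chromosome, and most of them act on growth before birth. They were followed as 10 of the 53700 rows of a raw count table, taken by matching each row's Ensembl identifier to the gene's symbol. All 10 were found, and all 10 were among the 18656 genes with enough reads to be fitted. They were chosen by levels measured in these same libraries across the 3 groups, with no record of which comparison was used. Their levels and fold changes are therefore given as a description, with no p-value, and counts of calls among them are printed beside the share of all genes with nothing read from them.

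The 8 libraries held RNA from mouse skin, recovered with an antibody to GFP from ribosomes that carry a GFP tag. Mice of every group were AdipoqCreER;R26-NuTRAP and received Tamoxifen, so the controls carry the transgenes and the drug as well. AdipoqCreER is a Cre recombinase under adiponectin control that acts once tamoxifen is present, and NuTRAP is the tagging reporter that it switches on, so cells that later lose adipocyte character keep the tag. The groups were uninjured skin (n = 3), skin titled PW3d (n = 2) and skin titled PW7d (n = 3), read here as 3 and 7 days post wounding and called day 3 and day 7. Wounded mice were 7 to 9 weeks of age, in the resting phase of the hair cycle, and had 4 full-thickness wounds from a 5 mm punch. The protocol text with that age is the same for all 8 libraries, the uninjured ones included. The labels do not say that replicates came from separate animals, so p-values measure the spread between these samples, which may be technical. A number in date form that begins each column name differs between the 3 groups, so whatever it stands for cannot be told apart from the wound time.

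Imprinted growth genes are high in the embryo and placenta and fall in most tissues after birth. On distal mouse chromosome 12, the paternal chromosome gives Dlk1, Rtl1 and Dio3, and the maternal chromosome gives the noncoding RNAs Meg3, Rian and Mirg, which lie in a row and carry small nucleolar RNAs and miRNAs. DLK1, also called PREF-1, is a transmembrane protein with EGF-like repeats that is made by preadipocytes and holds back their differentiation into adipocytes. Igf2 and H19 are neighbours on chromosome 7 that share enhancers, the paternal copy giving the growth factor and the maternal copy the noncoding RNA.

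Total counts ran from 5308959 to 17751689 a library. The summed level of 8 adipocyte markers was 26843 to 38973 CPM (reads scaled by TMM, a trimmed-mean normalization, to a common library total) in uninjured, 27649 and 35329 in day 3 and 24878 to 40621 in day 7 libraries, with no marker at 0. Fabp4 alone was at 15363 to 27507 CPM uninjured, 27973 and 19209 at day 3 and 21018 to 30925 at day 7, so it dominated this sum. None of the 8 passed in edgeR, and 1 was lower at day 7 by DESeq2. Against uninjured, 7 of the 8 had negative log2 differences at day 7 (median -0.59) and 7 at day 3 (median -0.30). RNA of other cell types was present as well. The sum of 10 mature muscle markers was 4882 to 10430 CPM uninjured, 2947 and 5010 at day 3 and 807 to 1448 at day 7, and all 10 fell at day 7 against uninjured. The sum of 12 adipocyte progenitor and fibroblast markers was 572 to 927 CPM uninjured, 1110 and 2568 in day 3 replicates 1 and 2, and 6161, 8461 and 4481 in day 7 replicates 1 to 3, and 8 of the 12 rose at day 7. The sum of 8 luminal mammary epithelium markers was 12.3 to 26.6 CPM uninjured, 1599 and 22.3 at day 3 and 1175, 1206 and 548 at day 7, and 7 of the 8 rose at day 7. Of these, Csn3 was at 0 in all 3 uninjured libraries. The 2 day 3 libraries differed from each other in several marker sums, and day 7 replicate 3 had the lowest sum of its group in 8 of 10 marker sets and the highest adipocyte sum. In such bulk RNA, fewer cells of a type and less RNA per cell cannot be told apart.

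The genes of the Dlk1 domain lie on the plus strand of chromosome 12 in the GRCm38 annotation. Dlk1 spans chr12:109452823-109463336, Meg3 chr12:109541001-109571726, Rian chr12:109603940-109661716 and Mirg chr12:109729764-109749460. The 250 bases before a RefSeq start site (RefSeq, GRCm38.p6) are shown for Dlk1, for the first of the 2 listed Meg3 starts and for Rian, since these genes were higher together at day 7, and for Peg3 because it alone among the promoters found held the PLAGL1 motif. Letters run 5′ to 3′ on the gene's strand, and capitals mark matches to 4 of the 5 motifs searched on both strands.
Dlk1, chr12:109452573-109452822: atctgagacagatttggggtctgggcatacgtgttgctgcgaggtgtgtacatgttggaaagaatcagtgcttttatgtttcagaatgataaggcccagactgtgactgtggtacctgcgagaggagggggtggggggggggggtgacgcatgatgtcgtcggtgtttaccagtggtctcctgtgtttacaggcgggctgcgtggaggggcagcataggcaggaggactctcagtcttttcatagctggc
Meg3, chr12:109540746-109540995: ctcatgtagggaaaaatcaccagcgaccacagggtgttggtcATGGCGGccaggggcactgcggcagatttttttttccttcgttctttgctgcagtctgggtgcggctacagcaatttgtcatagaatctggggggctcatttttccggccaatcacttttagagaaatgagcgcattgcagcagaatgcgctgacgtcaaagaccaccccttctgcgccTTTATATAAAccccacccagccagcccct
Rian, chr12:109603695-109603944: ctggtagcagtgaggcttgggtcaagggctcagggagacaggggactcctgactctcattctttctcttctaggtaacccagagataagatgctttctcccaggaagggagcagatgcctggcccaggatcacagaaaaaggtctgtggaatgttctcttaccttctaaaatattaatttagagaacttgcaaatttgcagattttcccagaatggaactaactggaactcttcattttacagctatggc
Peg3, chr7:6730420-6730669, minus strand: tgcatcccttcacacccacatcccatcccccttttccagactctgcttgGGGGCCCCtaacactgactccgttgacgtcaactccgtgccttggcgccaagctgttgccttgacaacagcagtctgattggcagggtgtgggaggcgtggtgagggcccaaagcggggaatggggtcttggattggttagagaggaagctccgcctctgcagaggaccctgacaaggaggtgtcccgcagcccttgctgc

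A promoter was found for 8 of the 10 genes, with 14 start sites. The motif bound by PLAGL1 was searched as GGGGCCCC. The TATA box was searched as TATAAA, and the core motif of the factor YY1 as ATGGCGG. The AP-1 motif was searched as TGANTCA, and the E-box, which is not capitalised, as CANNTG. The Meg3 window held the TATA box letters 29 and 25 bases before the start, on opposite strands and overlapping, and the YY1 letters 208 bases before it. Of the 32851 mouse promoters of the same length, 12.4% held the TATA box letters and 2.21% the YY1 letters. The Dlk1 window held none of the 5 motifs, and the Rian window held the E-box letters alone, which 66.2% of promoters hold. The Peg3 window held the PLAGL1 letters, present in 0.889% of promoters, 201 bases before its start. GC content was 54.8% for Dlk1, 52.4% for Meg3 and 45.2% for Rian, against a median of 52.4% over all promoters, with 8, 10 and 0 CpG sites against a median of 6. These are matches of letters and were not set against binding data.

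The noncoding members are hosts of miRNAs, and 41 mature miRNAs of 22 hairpins lie within 6 of the 10 genes, 26 of them in Mirg. They had 40 seeds (bases 2 to 8) among them. The mature sequences of hairpins in the genes that were highest at day 7 are shown with the seed in capitals, including the 1 pair of miRNAs with a shared seed, miR-453 and miR-496a-5p, both in Mirg.
miR-770-5p (Meg3): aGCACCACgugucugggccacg
miR-370-3p (Rian): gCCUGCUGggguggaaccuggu
miR-341-3p (Rian): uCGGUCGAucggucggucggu
miR-134-5p (Mirg): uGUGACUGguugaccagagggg
miR-410-3p (Mirg): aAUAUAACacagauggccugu
miR-453 (Mirg): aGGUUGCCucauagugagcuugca
miR-496a-5p (Mirg): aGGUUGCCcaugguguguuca
miR-675-5p (H19): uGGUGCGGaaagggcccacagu
miR-675-3p (H19): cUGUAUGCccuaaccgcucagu
miR-335-5p (Mest): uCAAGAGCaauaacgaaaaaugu

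The libraries did not measure these miRNAs. Of the 22 hairpin rows of the count table, 18 were at 0 in all 8 libraries and the highest held 2 reads in all. Host RNA levels below therefore say nothing of the mature miRNAs.

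Dlk1 was close to absent from the RNA recovered with tagged ribosomes from uninjured skin and present in every day 7 library. Its level was 0.122, 0.245 and 0 CPM in the 3 uninjured libraries, 0.411 and 1.50 at day 3 and 2.83, 4.39 and 6.47 at day 7. These values rest on 1, 4 and 0 reads uninjured, 2 and 14 at day 3 and 25, 47 and 54 at day 7. No day 7 library overlapped the uninjured ones, and both day 3 libraries lay between the groups. The pooled uninjured level was between 0.0516 and 0.371 CPM, by the exact 95% Poisson interval of its 5 reads, which covers counting error only. The fitted log2 difference of day 7 from uninjured was 4.82 ± 0.81 (SE), or 28.3-fold. The fold was 56.6 without uninjured replicate 2, which held 4 of the 5 uninjured reads. At day 3 the log2 difference of Dlk1 was 2.68 ± 0.91, and it was 3.23 without day 3 replicate 1, 1.38 without day 3 replicate 2 and 3.68 without uninjured replicate 2.

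Meg3, the long noncoding RNA that begins the maternal transcripts of the domain, had the highest count of the 4 genes of the domain measured here in every library. Its level was 5.24, 6.00 and 7.22 CPM uninjured, 21.4 and 51.4 at day 3 and 252.1, 288.4 and 55.6 at day 7. The uninjured libraries lay close together, day 3 lay above them, and day 7 replicate 3 was only slightly above day 3 replicate 2. The log2 difference from uninjured was 2.58 ± 0.59 at day 3 and 5.01 ± 0.60 (32.3-fold) at day 7. The day 3 difference was 3.06 without day 3 replicate 1 and 1.78 without replicate 2. None of the 8 libraries held RNA from before recovery with the antibody. Whether reads of noncoding RNAs such as Meg3, Rian and Mirg came from tagged ribosomes was therefore not tested.

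Rian, the next transcript and the host of many small nucleolar RNAs, was at 1.59, 1.22 and 1.44 CPM uninjured, 1.65 and 3.42 at day 3 and 18.2, 28.6 and 5.75 at day 7. Day 3 replicate 1 was thus near the uninjured libraries, while all day 7 libraries lay above both other groups. The log2 difference of Rian was 0.89 ± 0.65 at day 3, or 0.21 without day 3 replicate 2, and 3.63 ± 0.58 (12.4-fold) at day 7. Mirg, which carries the large miRNA cluster at the end of the row, was at 0.366, 0.306 and 0.144 CPM uninjured, 1.65 and 2.25 at day 3 and 10.3, 5.60 and 2.04 at day 7. Its day 3 values were above all uninjured values, and day 7 replicate 3 lay between the day 3 libraries. The log2 difference of Mirg was 2.75 ± 0.78 at day 3 and 4.35 ± 0.72 (20.4-fold) at day 7, and 13-fold without day 7 replicate 1.

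The maternal RNAs and Dlk1 ordered the day 7 libraries differently. Day 7 replicate 3 had the lowest Meg3, Rian and Mirg and the highest Dlk1. Meg3 reads were 89.1, 65.8 and 8.59 times the Dlk1 reads in day 7 replicates 1, 2 and 3. Meg3 reads over Rian reads varied less within groups, at 3.31, 4.90 and 5.00 uninjured, 13 and 15.0 at day 3 and 13.8, 10.1 and 9.67 at day 7. Both wound groups thus lay above every uninjured library in that ratio. Day 7 replicate 3 also had the lowest sum of its group for 8 of 10 marker sets, among them endothelial (452, 390 and 120 CPM in replicates 1 to 3), luminal (1175, 1206 and 548 CPM) and macrophage markers (539, 876 and 381 CPM). The adipocyte sum was highest in that library (24878, 28419 and 40621 CPM in replicates 1 to 3). Without day 7 replicate 3 the folds at day 7 over uninjured were 22.5 for Dlk1, 44.0 for Meg3, 16.6 for Rian and 27.0 for Mirg. The part of any of these cells in the split between Meg3 and Dlk1 was not tested.

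**Figure D1:**
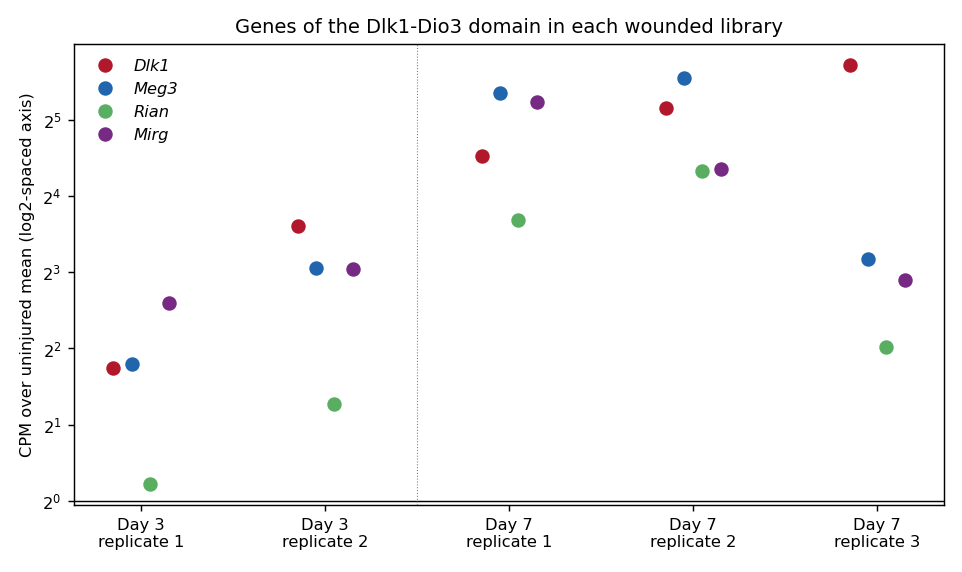
Level of Dlk1, Meg3, Rian and Mirg in each wounded library, as CPM divided by the mean of the 3 uninjured libraries, on a log2-spaced axis. Each point is 1 gene in 1 library. In day 7 replicate 3 Dlk1 stood highest and the 3 noncoding RNAs stood lower than in the other day 7 libraries; the Dlk1 ratios rest on 5 uninjured reads.

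H19 and Igf2 lie on the minus strand of chromosome 7, at chr7:142575529-142578143 and chr7:142650766-142666816 in GRCm38. H19, the maternal noncoding RNA that carries miR-675, was lower at day 3 and higher at day 7 than in uninjured libraries. It was at 59.5, 72.8 and 37.3 CPM uninjured, 12.5 and 29.9 at day 3 and 110.2, 154.2 and 133.4 at day 7, and no 2 of the 3 groups overlapped. The log2 difference of H19 from uninjured was -1.40 ± 0.39 at day 3 and 1.23 ± 0.33 (2.34-fold) at day 7, and day 7 was 6.16-fold above day 3, or 10.6-fold without day 3 replicate 2. At day 3 it was -2.19 without replicate 2 and -0.92 without replicate 1.

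Igf2, the fetal growth factor, had too few reads to show whether it followed H19. Its level was 1.59, 2.57 and 0.433 CPM uninjured, 0.617 and 0.962 at day 3 and 0.679, 1.77 and 1.20 at day 7, from 3 to 42 reads a library, and all 3 groups overlapped. The log2 difference of Igf2 from uninjured was -0.95 ± 0.84 at day 3, and between day 7 and day 3 it was 0.59 ± 0.85, both with the sign of H19. At day 7 against uninjured it was -0.37 ± 0.69, the other sign, and 0.25 without uninjured replicate 2. H19 reads were 28.3 to 86 times the Igf2 reads in uninjured libraries, 20.3 and 31.1 times at day 3 and 86.9 to 162.2 times at day 7. Of the exon length of Igf2, 62.8% is shared with another annotated gene on the same strand, Gm49394, whose row was at 0, so the split of reads between them is uncertain.

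Peg3, a paternally expressed zinc finger protein on chromosome 7 (chr7:6703892-6730431), was at 22.1, 22.6 and 8.38 CPM uninjured, 10.9 and 17.3 at day 3 and 46.2, 43.1 and 23.7 at day 7. The day 7 libraries lay above all others, replicate 3 by little, and day 3 fell within the uninjured range. The log2 difference of Peg3 at day 7 was 1.08 ± 0.39. Mest, a paternally expressed membrane protein of the hydrolase fold that is raised in expanding fat (chr6:30723547-30748465), was at 6.10, 5.33 and 1.16 CPM uninjured, 4.94 and 3.74 at day 3 and 9.17, 25.1 and 17.5 at day 7. Day 3 again fell within the uninjured range and day 7 above it. The log2 difference of Mest at day 7 was 2.02 ± 0.55 (4.05-fold). Copg2 shares 23.1% of the Mest exon length on the opposite strand, and the strand setting of the counts is not given in the sources used here. Copg2 itself was at 25.3 to 32.7 CPM uninjured and 15.7 to 24.0 at day 7 (not past the test).

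Plagl1, also called Zac1, is a zinc finger factor that acts on other imprinted genes (chr10:13060504-13131694). It was at 53.3, 26.4 and 27.2 CPM uninjured, 11.5 and 17.7 at day 3 and 32.2, 38.8 and 27.0 at day 7. Day 3 lay below every other library, and day 7 lay within the uninjured range. The log2 difference of Plagl1 was -1.27 ± 0.37 at day 3 and -0.12 ± 0.31 at day 7. Cdkn1c encodes p57, a maternally expressed inhibitor of cyclin-dependent kinases (chr7:143458339-143461050). It was at 17.7, 24.3 and 20.8 CPM uninjured, 65.8 and 50.1 at day 3 and 32.9, 49.2 and 31.3 at day 7. Cdkn1c was thus highest at day 3, with day 7 between and no overlap of any 2 groups. Its log2 difference was 1.47 ± 0.27 (2.76-fold) at day 3 and 0.85 ± 0.25 (1.80-fold) at day 7. Gm44732 shares 30.6% of the Cdkn1c exon length on the opposite strand, and its row was at 0 in all 8 libraries.

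**Figure D2:**
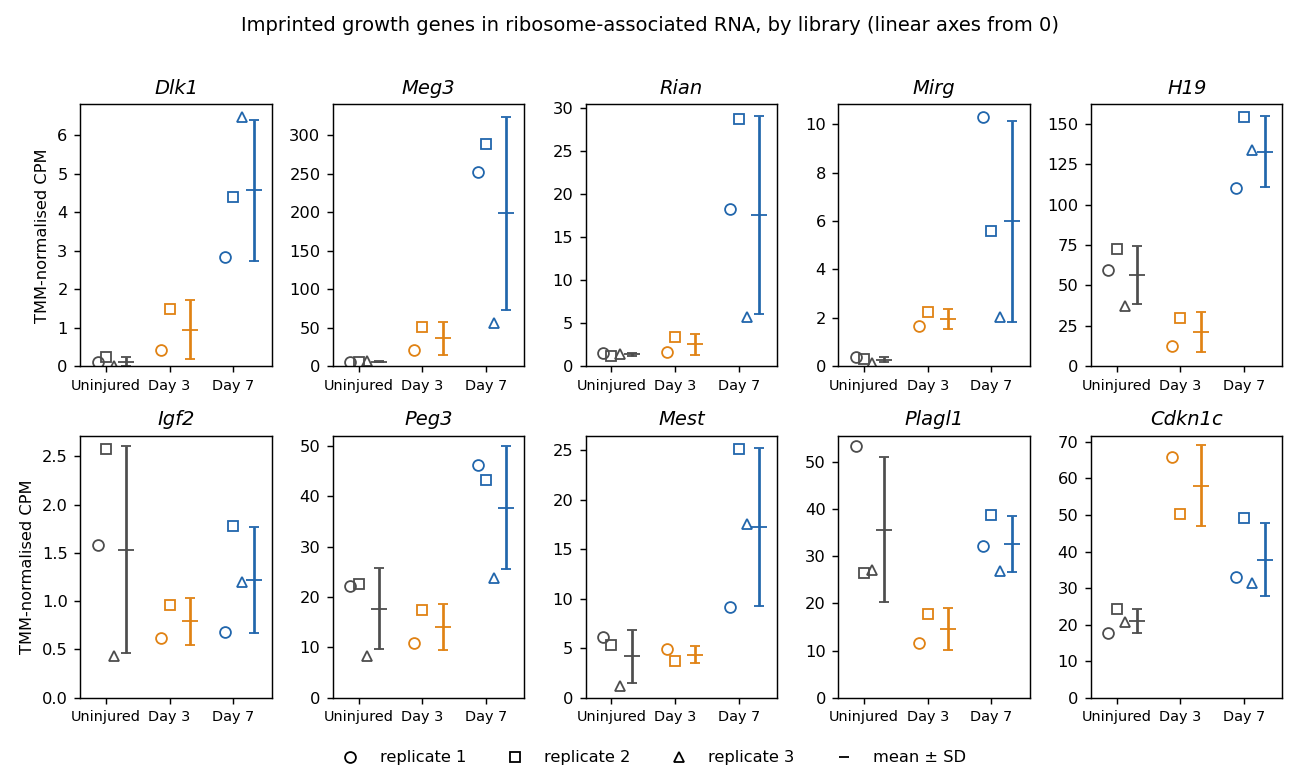
Level of each of the 10 genes in every library, in TMM-normalised CPM on linear axes that start at 0 and differ between panels. Symbols are replicates and the bar beside them is the mean ± SD (n = 3 uninjured, 2 at day 3 and 3 at day 7). The 4 genes of the Dlk1 domain were highest at day 7, H19 and Plagl1 were lowest at day 3, and Cdkn1c was highest at day 3.

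At day 7 against uninjured, 6 of the 10 genes (Dlk1, Meg3, Rian, Mirg, H19 and Mest) were called higher and 0 lower at an adjusted p under 0.05 (edgeR quasi-likelihood test, Benjamini-Hochberg over all genes), where 7.67% of all genes tested were called, 5.9% higher and 1.77% lower. All libraries of day 7 lay above all uninjured ones for 8 of the 10, against 16.7% of all genes. The genes were picked with such values in view, so nothing is read from these counts. The calls for H19 and Mest ended when any 1 uninjured library, or day 7 replicate 1 or 2, was left out.

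At day 3 against uninjured, 0 of the 10 were called (edgeR), where 0.0107% of all genes were. At an unadjusted p under 0.05 there were 4 higher and 2 lower, beside 7.57% and 5.39% of all genes. DESeq2 called 2 higher and 1 lower, beside 1.86% and 0.604% of the genes it gave an adjusted p. Day 3 libraries lay wholly above uninjured ones for 5 of the 10 (16.9% of all genes) and wholly below for 2 (17.2%). At day 7 against day 3, 0 of the 10 were called, where 0.0858% of all genes were (0.0643% higher and 0.0214% lower). At an unadjusted p under 0.05 there were 8 higher and 1 lower, beside 6.37% and 4.64% of all genes. DESeq2 called 3 higher and 0 lower, beside 0.893% and 0.48%, with no adjusted p for Igf2. Day 7 libraries lay wholly above day 3 ones for 7 of the 10 (14.2% of all genes) and wholly below for 1, Cdkn1c being that gene (11.4%). These 3 comparisons share libraries, and nothing is read from these counts either. The median log2 difference of the 10 was 1.62 at day 7 and 0.45 at day 3, both against uninjured, and 1.80 between day 7 and day 3, beside 0.04, 0.02 and 0.08 over all genes tested.

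**Figure D3:**
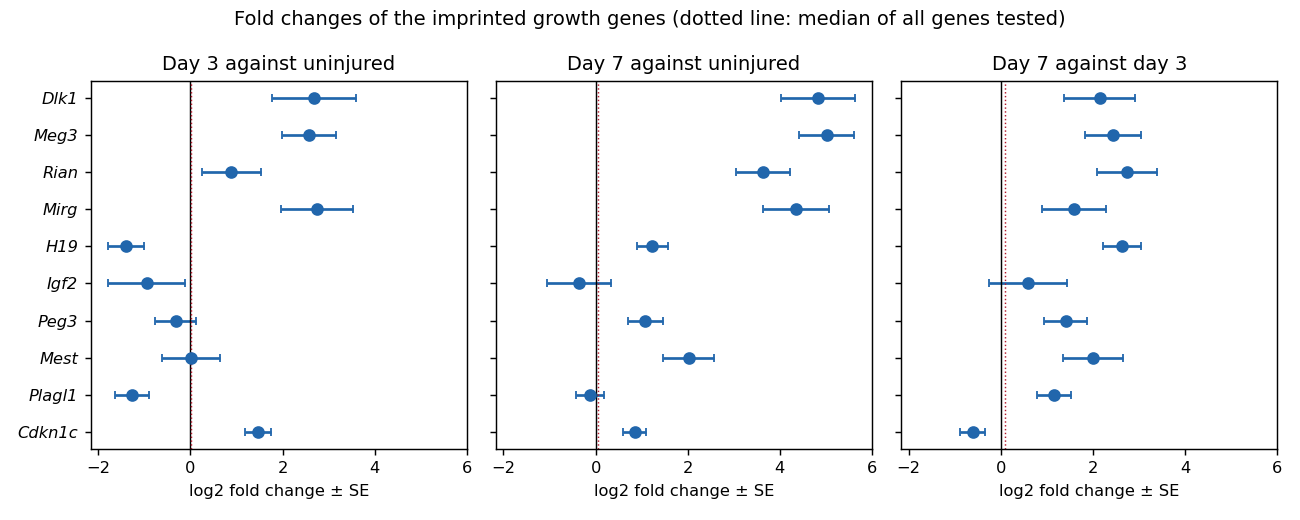
Fitted log2 fold change ± SE of the 10 genes in each of the 3 comparisons, with a dotted line at the median of all genes tested. Meg3 (5.01), Dlk1 (4.82) and Mirg (4.35) had the greatest values at day 7 against uninjured, and H19 and Plagl1 lay below 0 at day 3 and above it between day 3 and day 7.

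Levels were also set against each other per kilobase of exon, since long transcripts collect more reads. In uninjured libraries the order began with H19 at 23.0 ± 7.3 CPM per kilobase (SD, n = 3), Cdkn1c at 10.3 ± 1.6 and Plagl1 at 4.56 ± 1.96, and these 3 did not overlap each other. Peg3 (1.30 ± 0.59), Mest (1.06 ± 0.67), Meg3 (0.340 ± 0.055) and Igf2 (0.267 ± 0.187) followed, each overlapping the next in its library values. Rian (0.0443 ± 0.0057), Mirg (0.0373 ± 0.0157) and Dlk1 (0.0216 ± 0.0217) came last, below Igf2 and not separable from each other.

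At day 3 Cdkn1c led at 28.4 ± 5.4 CPM per kilobase (SD, n = 2) with H19 at 8.63 ± 5.00, and their libraries did not overlap. Meg3 (2.01 ± 1.17) and Plagl1 (1.87 ± 0.56) overlapped each other. At day 7 H19 led at 53.9 ± 8.9 (SD, n = 3), above Cdkn1c at 18.5 ± 4.9, Meg3 at 11.0 ± 6.9, Mest at 4.37 ± 2.02 and Plagl1 at 4.17 ± 0.76, where each of these 4 overlapped its neighbour. Mirg (0.820 ± 0.569), Dlk1 (0.806 ± 0.323), Rian (0.548 ± 0.358) and Igf2 (0.213 ± 0.096) formed the lowest group. Meg3 reads were 3.13% to 6.94% of the reads of all 10 genes in uninjured libraries and 49.0%, 45.1% and 18.3% in day 7 replicates 1 to 3.

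**Figure D4:**
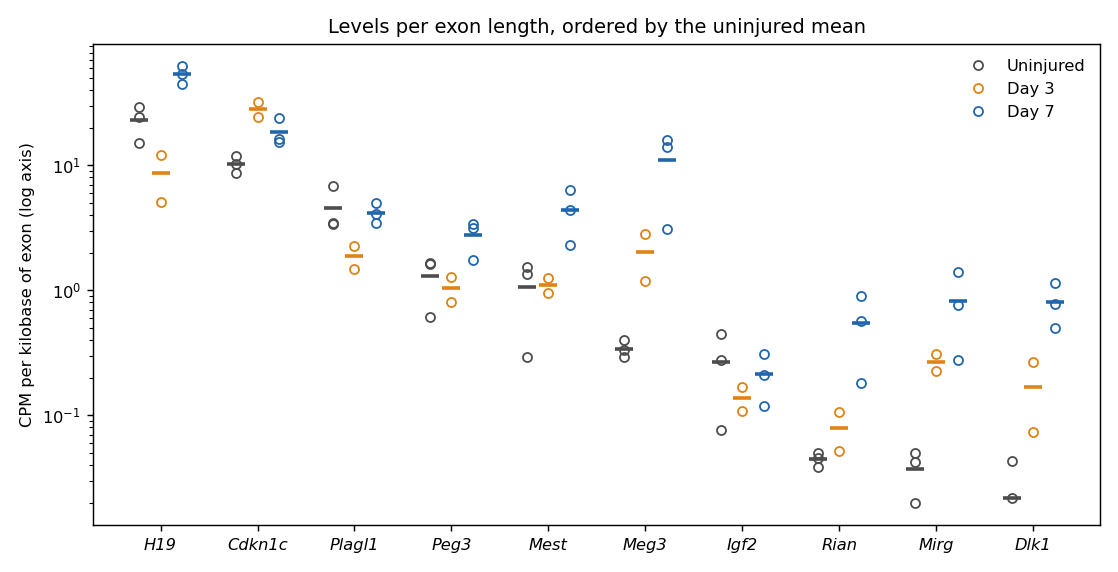
Level of each gene per kilobase of exon on a log axis, with 1 point per library and a bar at the group mean, ordered by the uninjured mean. H19 was highest in uninjured and day 7 libraries and Cdkn1c at day 3. Dlk1 in uninjured replicate 3 was at 0 and has no point on this axis.

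The other genes of the domain and its borders were taken as 7 genes, of which 6 were tested. Rtl1, a coding gene derived from a retrotransposon that is needed in placenta and muscle, rose at day 7 (10.5-fold, adjusted p = 0.0491, edgeR). It was at 0, 0.367 and 0.144 CPM uninjured, 0.411 and 1.07 at day 3 and 3.06, 2.89 and 0.719 at day 7, with its lowest day 7 value in replicate 3 as for Meg3. The p lay between 0.0512 and 0.141 without either day 3 library or without any 1 uninjured library. Dio3, the deiodinase gene at the far end, had at most 4 reads a library and was not tested. Yy1, Wars and Ppp2r5c, which are not imprinted, had log2 differences between -0.32 and 0.01 at day 3. None of the 6 passed at day 3 (0 at an unadjusted p under 0.05 and 0 by DESeq2) or between day 7 and day 3 (0 and 0). At day 7 against uninjured, 2 of the 6 were higher at an unadjusted p under 0.05 (edgeR) and 2 by DESeq2. Of the 6, 3 lay wholly above uninjured libraries, beside 16.7% of all genes. Begain did not pass in edgeR. It was at 0.610, 0 and 0.289 CPM uninjured, 0 and 1.28 at day 3 and 4.19, 4.01 and 1.08 at day 7. The median of the 6 was 0.10 at day 7.

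Of 35 further imprinted genes listed, 30 were tested, 5 rose and 0 fell at day 7 against uninjured, and their median log2 difference was -0.06 beside 0.04 over all genes. Igf2r, the receptor that clears IGF2, rose 2.27-fold (adjusted p = 0.0421), from 11.8 to 18.9 CPM uninjured to 39.5, 37.9 and 21.3 at day 7. Ndn, necdin, a growth suppressor of neurons and fat precursors, rose 2.23-fold (adjusted p = 0.0277), from 10.1 to 19.2 CPM uninjured to 27.9 to 36.1 at day 7, and its day 3 libraries were at 38.5 and 33.4.

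Rasgrf1, an exchange factor for RAS, rose 28.0-fold (adjusted p = 0.0167), from 0.289 to 0.613 CPM to 21.5, 11.9 and 5.51. Kcnq1ot1, the noncoding RNA of the Cdkn1c domain, rose 4.08-fold (adjusted p = 0.0479), though day 7 replicate 3 at 24.2 CPM lay within the uninjured range of 9.88 to 29.8. Phlda2, a growth inhibitor of placenta from the same domain, had no read in the uninjured libraries and 15, 6 and 11 reads at day 7, at least 3.64-fold higher with 3 reads taken for each uninjured library (adjusted p = 0.0449). Adjusted p rose above 0.05 for each of these 5 genes without uninjured replicate 1 or 3, and for most of them without uninjured replicate 2 or day 7 replicate 1 or 2, with values up to 0.156 for Igf2r, 0.116 for Ndn, 0.0748 for Rasgrf1, 0.195 for Kcnq1ot1 and 0.116 for Phlda2.

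At day 3 none of the 30 passed (2 higher and 5 lower at an unadjusted p under 0.05, and 1 higher and 0 lower by DESeq2). Between day 7 and day 3 none passed either (4 higher and 1 lower, and 0 higher and 1 lower by DESeq2). Nnat, neuronatin, an imprinted membrane proteolipid also made by fat cells, had the highest level of them. The level of Nnat was 982.0, 1283 and 569.0 CPM uninjured, 904.0 and 3205 at day 3 and 155, 430.2 and 453 at day 7.

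Of 21 tested genes that carry, bind or relay insulin-like growth factors, 4 rose and 0 fell at day 7. Besides Igf2r these were binding proteins and a regulator of their cleavage. Igfbp6, which prefers IGF2, rose 4.72-fold (adjusted p = 0.00748), from 9.24 to 11.9 CPM uninjured to 55.7, 70.6 and 28.3. Igfbp2 rose 2.61-fold (adjusted p = 0.0436), from 5.05 to 7.20 CPM to 20.0, 17.0 and 9.10. Stc2, which blocks the protease that frees IGF from its binding proteins, rose 2.84-fold (adjusted p = 0.0358). The list's median was 0.37 at day 7.

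Igf1 itself was at 434 to 482 CPM uninjured, 355 and 379 at day 3 and 270 to 511 at day 7 (not past the test). The calls for Igfbp2 and Stc2 ended when any 1 uninjured library, or day 7 replicate 1 or 2, was left out (adjusted p up to 0.174 and 0.126), and the call for Igfbp6 was not lost in any alternative. None passed at day 3 (1 higher and 0 lower at an unadjusted p under 0.05, 0 by DESeq2) or between day 7 and day 3 (3 higher and 0 lower, and 1 higher by DESeq2).

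DLK1 resembles Notch ligands without the domain that activates the receptor, so the Notch pathway was listed beside it. Of its 16 genes, 6 rose and 0 fell at day 7, and the median log2 difference was 1.59. Among targets, Sox9 rose 13.3-fold (adjusted p = 0.00448), from 2.02 to 3.49 CPM uninjured to 46.8, 41.0 and 19.3. The transcriptional repressors Heyl rose 8.40-fold (adjusted p = 0.0142) and Hes1 rose 4.05-fold (adjusted p = 0.0190). Dll4, an activating ligand of vessel sprouts, rose 19.5-fold (adjusted p = 0.0189), from 0, 0.429 and 0 CPM to 4.64, 5.13 and 2.16. Notch3, a receptor of mural cells, and Hey1 were the other 2, and Notch3 in day 7 replicate 3 (3.35 CPM) lay within the uninjured range.

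Endothelial markers moved with this list, 5 of 8 having risen at day 7, with sums of 75.4 to 161 CPM uninjured and 120 to 452 at day 7, and their part in it was not tested. The calls for Dll4 and Hes1 ended when day 7 replicate 1 or 2 was left out, or uninjured replicate 1 or 3 (adjusted p up to 0.0734 and 0.0763). That for Heyl ended when day 7 replicate 2 or uninjured replicate 1 or 3 was left out (up to 0.0708), and that for Sox9 held in all alternatives run. At day 3 none of the 16 passed (2 higher and 1 lower at an unadjusted p under 0.05, 0 by DESeq2), nor between day 7 and day 3 (5 higher and 0 lower, and 2 higher by DESeq2).

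Partners of p57 in the cell cycle were listed as 12 genes, of which 11 were tested. Ccnd1, cyclin D1, rose 6.33-fold at day 7 (adjusted p = 0.0151), from 1.22 to 2.31 CPM uninjured to 19.6, 9.33 and 6.47, with 6.17 and 3.10 at day 3. Its adjusted p was 0.0628 without day 7 replicate 1 and 0.0743 without uninjured replicate 1. The other 10 did not pass at day 7, and the median was -0.15. Cdkn2c, the inhibitor p18, was the most abundant at 1305 to 1657 CPM uninjured, 1575 and 1520 at day 3 and 857, 975 and 1472 at day 7. None passed at day 3 (1 higher and 1 lower at an unadjusted p under 0.05, and 1 lower by DESeq2) or between day 7 and day 3 (3 higher and 1 lower, 0 by DESeq2).

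Of 12 tested genes that place or keep DNA methylation and imprints, Dnmt1, the maintenance methyltransferase, rose 3.28-fold at day 7 (adjusted p = 0.0364), from 4.77 to 7.68 CPM to 29.4, 20.1 and 12.0. The median log2 difference of the 12 at day 7 was 1.02. The call for Dnmt1 was lost without day 7 replicate 1 or 2 or any 1 uninjured library (adjusted p 0.0878 to 0.155). None passed at day 3 (0 at an unadjusted p under 0.05, 0 by DESeq2) or between day 7 and day 3 (3 higher and 0 lower, 0 by DESeq2).

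Plag1 and Plagl2, the growth-promoting relatives of Plagl1, did not pass in any comparison. Plag1 was at 0.244, 0.857 and 0.289 CPM uninjured, 2.26 and 34.3 at day 3 and 0.566, 6.53 and 0.479 at day 7, so its day 3 mean rests on replicate 2. At day 3 against uninjured 1 of the pair was higher at an unadjusted p under 0.05 and 1 by DESeq2. Between day 7 and day 3 there was 1 lower at an unadjusted p under 0.05 and 0 by DESeq2, and at day 7 against uninjured 0 by either.

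Several of the 10 genes are known in regenerating muscle. The sum of 12 muscle progenitor and regenerating muscle markers was 52.7 to 92.0 CPM uninjured, 33.3 and 66.4 at day 3 and 55.7 to 76.2 at day 7, so day 7 lay within the uninjured range. Of 10 tested at day 7, Ncam1 rose and Chrna1 fell. Of these 10, 3 lay wholly above the uninjured libraries and 3 wholly below (16.7% and 13.5% of all genes). The sum thus mixes both directions, and the median log2 difference was 0.57. Chrna1 was at 14.7 to 36.3 CPM uninjured and 1.02 to 5.79 at day 7. Mymk was at 0.289 to 1.10 CPM uninjured and 2.64 to 2.89 at day 7. Pax7, which marks muscle stem cells, was at 0.306 to 0.578 CPM uninjured and 0.340 to 1.56 at day 7. At day 3 the fibroblast and progenitor sum was 1110 CPM in replicate 1 and 2568 in replicate 2, and the macrophage sum 190 and 754. Both were higher in replicate 2, as Dlk1, Meg3, Rian and Mirg were. The keratinocyte, mature muscle, muscle progenitor, mural and endothelial sums were higher in replicate 2 as well. The luminal sum was 1599 CPM in day 3 replicate 1 and 22.3 in replicate 2, the other order. The adipocyte and Schwann cell sums shared that other order. At day 7 the luminal, macrophage, fibroblast, mural and muscle progenitor sums had the order of Meg3 over the 3 libraries. Replicate 2 was highest and replicate 3 lowest in each. The other marker sums did not have that order, and Dlk1 did not. The part of any of these cells in the levels of the 10 genes was not tested. Macrophage markers summed to 86.4 to 211 CPM uninjured, 190 and 754 at day 3 and 381 to 876 at day 7, with 2 of 8 having risen at day 7. Mural markers summed to 478 to 843, 410 to 531 and 373 to 671 CPM (3 of 8 rose, 1 fell), keratinocyte and hair follicle markers to 1845 to 3315, 1358 to 5712 and 1935 to 6645 CPM (0 of 8 passed, edgeR) and Schwann cell markers to 42.7 to 49.4, 30.4 to 52.4 and 26.0 to 52.8 CPM (1 of 5 rose, 1 fell).

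The genes with profiles most like Dlk1, Meg3 and H19 were sought among 14682 named genes, by the root-mean-square difference of log2 CPM, centred on each gene's mean over the 8 libraries, where a smaller value is more alike. For Dlk1 they were Ptgds, Bgn, Fkbp10, C1qtnf6 and Prg4 (0.37 to 0.52, against a median of 1.76 over all genes). Ptgds, the nearest, was at 0.578 to 0.857 CPM uninjured, 1.65 and 2.57 at day 3 and 9.42 to 15.3 at day 7. Bgn encodes the matrix proteoglycan biglycan and Fkbp10 a chaperone of collagen. Bgn was at 24.1 to 45.4 CPM uninjured, 34.5 and 105.9 at day 3 and 277 to 432 at day 7. The nearest of the other 9 members to Dlk1 was Mirg, at rank 201.

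For Meg3 the nearest were Clec4d, Mmp23, Col1a1, Fbn2 and Cck (0.47 to 0.55, against a median of 2.15), and Mirg (rank 10) and Rian (rank 22) were among the 50 nearest. Clec4d, the nearest, was at 0 to 0.245 CPM uninjured, 0.411 and 1.28 at day 3 and 1.68 to 8.30 at day 7. Col1a1, the main fibrillar collagen gene, was at 107 to 151 CPM uninjured, 329 and 736 at day 3 and 1360 to 2919 at day 7. For H19 they included Creb3l1, Tmem121, Ddah1 and Nbl1 (0.25 to 0.40, against a median of 1.21). Creb3l1, a membrane-bound factor that drives collagen secretion, was at 7.37 to 14.5 CPM uninjured, 3.70 and 6.41 at day 3 and 21.2 to 34.6 at day 7, with the low day 3 and high day 7 of H19. No other member was among the 50 nearest H19 genes, Peg3 being closest at rank 90. Such nearness over 8 libraries of 3 groups is a description and was not tested. Near 0 reads these profiles depend on the prior count of 2 added before the log2. Cck had 0 reads in all uninjured libraries, Clec4d 0, 4 and 0, and Tmem121 0 and 2 at day 3. Dlk1 itself had 5 uninjured reads in all.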

How the data were processed

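The authors deposited raw counts of reads for each gene, with a column for each library and no normalization. Reads were counted with featureCounts 2.0.8, per the file headers, and the submitters' processing notes also list mm10, DESeq2 and STAR 2.7.10b. For strand and multimapping, the settings were not given in the sources used here. Coordinates in the table differed from the GRCm38 annotation (GENCODE M21) for all 10 members, so their build is not settled, and positions printed are those of GRCm38. Symbols were matched for 52093 of 53700 identifiers, and the unmatched held at most 0.493% of a library's counts.

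TMM-normalised counts were fitted in edgeR 4.0.16 (R 4.3.3), in 1 model with a mean per group over all 8 libraries (5 residual degrees of freedom), for 18656 genes that passed filterByExpr at a minimum count of 10. Tests were two-sided quasi-likelihood F tests with Benjamini-Hochberg adjustment over all genes tested at 0.05. CPM are TMM-normalised, and levels per kilobase used the exon length in the table. Totals of 5308959 to 17751689 counts limit low genes, where 3 reads are 0.169 to 0.565 CPM before normalization. Procedures were tested on simulated data. Of simulated 2-fold changes, the edgeR test recovered 9.3% at day 7 and 6.7% at day 3 against uninjured, and 3.7% at day 7 against day 3. Of 4-fold changes it recovered 69.7%, 61% and 60.3% in the same order. A gene that did not pass may thus still have changed. Alternatives were a replicate block, leaving out each library, a fit of the compared groups only, DESeq2 1.42.0, edgeR scaled by upper quartiles or by DESeq2 size factors, a minimum count of 30 and no filter.

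The members and lists were chosen with earlier results of these data known. Genes named were all members; per list and comparison up to 4 with the smallest adjusted p, every one where at most 5 passed, or up to 3 of the highest mean CPM where none did; and, for Dlk1, Meg3 and H19, the 5 genes of nearest profile among genes tested with a symbol other than Gm or Rik names, with members among the 50 nearest. Of the nearest genes, 1 is not reported here. Dio3, Begain, Copg2, Pax7, Csn3, Notch3, Hey1 and single marker genes outside this rule were named after their values were seen.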

Additional observations from a re-analysis of the deposited data

Results flagged for a closer look

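Among the 10 members and the genes named from the lists, 4 genes lay on opposite sides of the uninjured mean at the 2 wound times. Every day 3 library lay on one side and every day 7 library on the other, in CPM divided by that mean. These were the members H19 and Peg3 and the list genes Cdkn2c and Ctcf. The share of all tested genes with this pattern was not counted, so nothing is read from the number. Genes picked for a profile like that of H19, such as Creb3l1, share its pattern by choice and were not counted. This pattern of opposite sides was not tested as such. In the separate test of day 7 against day 3 (edgeR), none of the 4 passed, where 0.0858% of all genes did. H19 was at 0.222 and 0.530 of the uninjured mean in day 3 replicates 1 and 2 and at 1.95, 2.73 and 2.36 in day 7 replicates 1 to 3. Peg3 was at 0.616 and 0.979 at day 3 and 2.61, 2.44 and 1.34 at day 7, so day 3 replicate 2 differed little from uninjured. Cdkn2c ran the other way, at 1.06 and 1.02 at day 3 and 0.575, 0.654 and 0.988 at day 7. Ctcf, the insulator protein that binds the H19 imprint control region, was at 0.920 and 0.763 at day 3 and 1.42, 1.15 and 1.02 at day 7. Several of these values, such as the Cdkn2c values at day 3 and the Ctcf value in day 7 replicate 3, lay within the spread of the uninjured libraries.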

How the results depend on the processing

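No log2 difference that had passed the test changed sign. Those of the members stayed within 1 SD between replicates (log2 CPM) of the value reported in 436 of 446 checks. That SD came from the same libraries, so leaving out 1 of them could seldom move a value past it. Some checks also left out a library outside the comparison, so this count does not measure robustness. Genes called at day 7 against uninjured were 1431, and 2602 by DESeq2, 3156 without a filter and 314 to 4055 when 1 library was left out, lowest without uninjured replicate 1 and highest without day 7 replicate 3, and over 1.5 times apart from 1431 without any 1 uninjured or day 7 library. At day 3 against uninjured they were 2, and 0 with the compared groups only, 0 at a minimum count of 30, 432 by DESeq2, 926 without a filter and 0 to 150 with 1 library left out, highest without day 3 replicate 2. At day 7 against day 3 they were 16, and 226 by DESeq2, 572 without a filter, 26 with upper-quartile scaling and 5 to 34 with 1 library left out. Of the 16, 75% were higher, and 57.69% of 26 with upper-quartile scaling. Members called at day 7 against uninjured were 6 (4 to 8 with 1 library left out). At day 3 against uninjured they were 0, and 3 by DESeq2, 5 without a filter and 0 to 1 with 1 library left out. At day 7 against day 3 they were 0, and 1 with DESeq2 size factors, 3 by DESeq2, 5 without a filter, 1 with upper-quartile scaling and 0 to 1 with 1 library left out. Whether replicate numbers pair the samples was not settled. Same-numbered libraries of uninjured and day 7 skin had correlations of deviations of -0.057, 0.061 and 0.203. Differently numbered ones ran from -0.225 to 0.207. Deviations from a mean of 3 libraries are tied to each other, so these values cannot exclude pairing. With a replicate block, 2131, 7 and 126 genes were called at day 7 and day 3 against uninjured and at day 7 against day 3, and 2 members in the last. Not every library was nearest its own number. Of 846 checks of named list genes, 785 stood, 55 lost their call, 54 of them with 1 library left out, and 6 gained one. With 2 libraries at day 3, leaving out 1 assumes that the other varies like the other groups. Ranks of the members by CPM without length differed, with Meg3 at rank 1 and H19 at rank 2 at day 7. The causes of these shifts were not tested.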
